A study of Drosophila melanogaster with 4 samples.

Results

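The messages of 8 genes linked to vesicle traffic, synapses, calcium and ion transport were followed in the heads of flies fed pilocarpine. They include AP-2sigma and alphaSnap of vesicle traffic, and Amph, whose vertebrate counterpart acts there. The others are the scaffold gene CASK, the calcium genes stj, Nckx30C and CanB, and nrv3 of the sodium pump. The 8 genes were picked by name. Each was matched to the array's old gene annotation through the listed symbol or the current symbol of the listed gene ID. All 8 had a value on at least 3 arrays, among 1444 genes that did. An earlier analysis of these data had already named them from larger lists for their values, so their distance from 0 is a description and no independent evidence. Pilocarpine-treated flies were Oregon-R wild-type males, unmated and 3 to 4 days old at the start, kept for 7 days on food with 1.5 mg/ml of the drug. The untreated flies were of the same strain, sex and age and had 7 days on normal food. Heads were collected by sieving frozen flies into 8 pools. Each of 4 two-colour cDNA arrays set a pool of treated heads against the control pool kept in parallel, which makes 4 biological replicates. Every value below is the log2 ratio of pilocarpine over normal food, with each array's median over probes set to 0.

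A nerve ending releases transmitter when calcium enters through voltage-gated channels and drives vesicles to fuse with the membrane through SNARE proteins. The used SNARE complexes are then pulled apart by NSF with its adaptor SNAP, and vesicle membrane is taken back up through clathrin coats that the AP-2 complex links to cargo. Exchangers and pumps carry the calcium and sodium back out, and calcineurin, a phosphatase switched on by calcium, removes phosphates from several proteins of this recycling. Pilocarpine activates muscarinic acetylcholine receptors, some of which signal through Gq and calcium. The comparison asks whether messages for this machinery differ in the head after a week of the drug.

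The direction of the ratio bears on every sign. Pilocarpine RNA was in Cy5 on replicates 1 and 2 and in Cy3 on replicates 3 and 4, and the labels do not say which channel is the numerator. The ratio was read as Cy5 over Cy3, the default of the scanner software, and the signs of replicates 3 and 4 were reversed. That direction is likely and not settled. In what is called the other direction here, with the treated RNA as numerator on every array, replicates 3 and 4 have the opposite sign, and both are given. The arrays measured between 4428 and 6392 spots, and intensities were not used here, so no level of a message can be given and the number of arrays limits the precision. Across the 748 genes on all 4 arrays, replicate 1 correlated with replicates 2, 3 and 4 at -0.08, -0.09 and -0.24, whereas the pairs among replicates 2, 3 and 4 were at 0.16, 0.41 and 0.45. Replicate 2 was the one below 0 in the other direction, at -0.08, -0.16 and -0.41. In pooled heads fewer cells of a type and less RNA per cell cannot be told apart.

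None of the 8 genes passed the test over all genes in either direction (limma, lowest adjusted p = 0.575 in the likely direction and 0.617 in the other one). In the likely direction 2 of 1444 genes passed (0.139%), apolpp and Obp19c, both higher and neither of this machinery. That count was 5, 0, 18 and 0 without replicates 1, 2, 3 and 4, and none of the 8 genes was among them. At an unadjusted p under 0.05 there were 3 of the 8, AP-2sigma, Nckx30C and CanB, against 7.41% of all genes. Read the other way, 0 of 1444 genes passed (0.00%), and 0 of the 8 reached that unadjusted limit, against 8.73% of all genes. A sign-flip permutation test of a single gene cannot go below an exact p of 0.125 on 4 arrays or 0.25 on 3. Of the 8, 7 had a mean above 0 in the likely direction, CanB being the exception, where 48.5% of all genes had. Turned round, 6 of the 8 were below 0, where 49.9% of all genes were. Of the 8, 7 had thereby changed sign, all but AP-2sigma, as had 64.8% of all genes. The 8 were named earlier for their values, so these counts beside all genes are a description and no independent evidence.

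**Figure D1:**
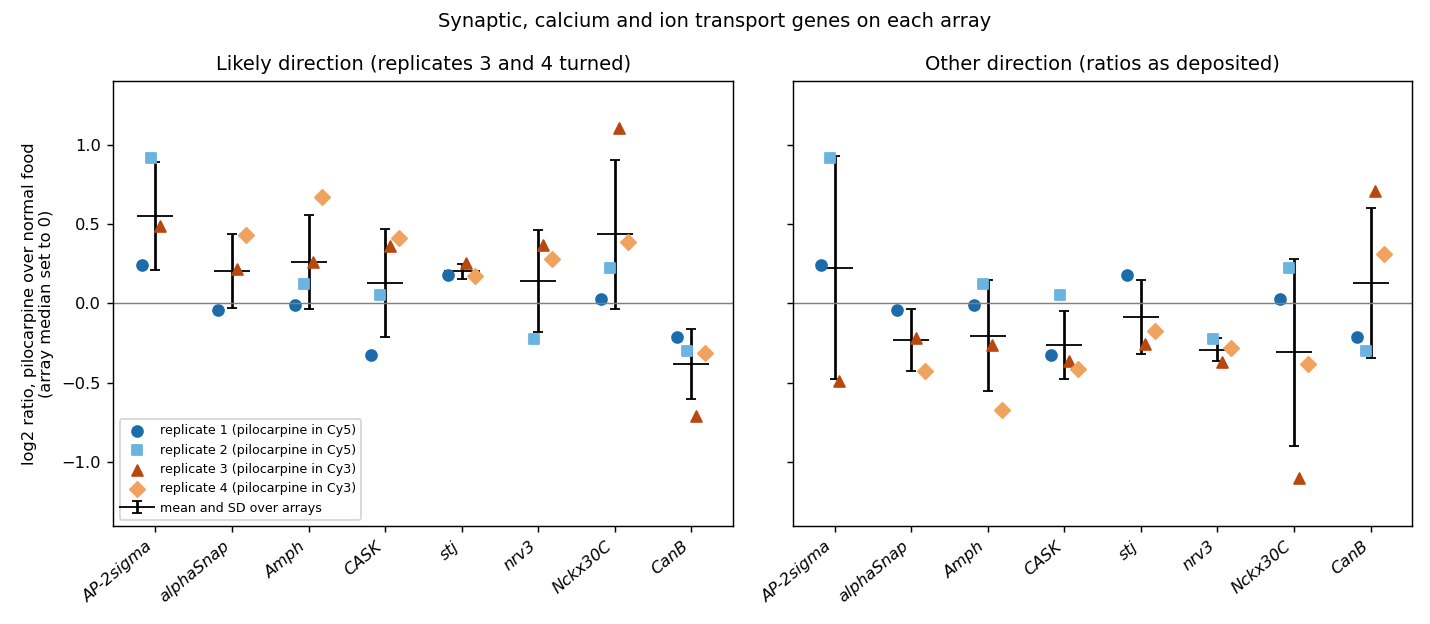
Log2 ratio of pilocarpine over normal food (vertical axis, array median set to 0) for each of the 8 genes on each array, with replicates 3 and 4 turned in sign (left) or as deposited (right); bars are the mean and SD over the 3 or 4 arrays that measured the gene. In the left panel CanB lies below 0 on all 4 arrays and Nckx30C above 0 on all 4, and in the right panel both have arrays on either side of 0.

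Among the vesicle genes, AP-2sigma had the highest mean of all 8. It encodes the small sigma subunit of the AP-2 adaptor, which recruits clathrin to the membrane for endocytosis. Its ratios were 0.24, 0.92 and 0.49 on replicates 1, 2 and 3, and replicate 4 gave no value. All 3 measured arrays lay above 0, and the mean was 0.55 ± 0.34 (SD, n = 3), a 1.46-fold ratio. The limma interval ran from 0.13 to 0.97 (95%), with a limma adjusted p = 0.575. Intervals here and below are for single genes, adjusted neither for the number of genes tested nor for how the 8 were chosen. AP-2sigma ranked 18 from the top of the 696 genes measured on 3 arrays, and 104 in the other direction. The pair of spots of its probe differed most on replicate 1, at -0.01 and 0.50, so that array adds little to its sign. The other direction gave 0.24, 0.92 and -0.49, with a mean of 0.22 ± 0.70 (SD, n = 3; limma adjusted p = 0.853).

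The message of alphaSnap, the adaptor that brings NSF to spent SNARE complexes, was measured on replicates 1, 3 and 4 at -0.04, 0.22 and 0.43. Replicate 1 sat at the array median and the other two above it. The mean was 0.20 ± 0.23 (SD, n = 3; limma adjusted p = 0.914), a 1.15-fold ratio, with a limma interval from -0.19 to 0.60. All 3 arrays lay below 0 in the other direction, where the mean was -0.23 ± 0.19 (SD, n = 3; limma adjusted p = 0.704).

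Amph encodes amphiphysin, a BAR-domain protein that bends membranes; in vertebrates it takes part in vesicle endocytosis, while in Drosophila it is known for the organisation of muscle T-tubules. Its ratios were -0.01, 0.12 and 0.26 on replicates 1 to 3 and 0.67 on replicate 4. Replicate 4 carried most of the mean of 0.26 ± 0.29 (SD, n = 4; limma adjusted p = 0.830), and without that array the mean was 0.13. Its mean stood 71 from the top of 748 genes, and 626 in the other direction, which gave -0.20 ± 0.35 (SD, n = 4; limma adjusted p = 0.733).

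CASK is a membrane-associated guanylate kinase, a scaffold of synapses that in the fly also binds the calcium/calmodulin kinase CaMKII. The array holds 3 probes for it, of which 2 gave values. The first read -0.36, -0.03, 0.71 and 0.52 on replicates 1 to 4, and the second -0.29, 0.13, 0.02 and 0.31. Both probes were lowest on replicate 1 and above 0 on replicates 3 and 4, but on replicate 3 they lay far apart. Averaged, CASK was at -0.32, 0.05, 0.36 and 0.41, with a mean of 0.13 ± 0.34 (SD, n = 4; limma adjusted p = 0.948) and no single sign. Its mean in the other direction was -0.26 ± 0.21 (SD, n = 4; limma adjusted p = 0.617), with 3 arrays below 0 and replicate 2 at 0.05.

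Of the calcium genes, stj encodes an alpha2-delta subunit of voltage-gated calcium channels, which in the fly brings the channel to synaptic release sites. One of its 2 probes gave values, 0.18, 0.26 and 0.17 on replicates 1, 3 and 4. These were the closest together of any of the 8, with a mean of 0.20 ± 0.05 (SD, n = 3), a 1.15-fold ratio. Its paired spots lay farther apart than that, by up to 0.298 on replicate 4, where they read 0.026 and 0.324. Limma moderates so small an SD towards that of other genes, so the adjusted p was 0.914 and the interval ran from -0.17 to 0.58. The closeness depends on the direction: with replicates 3 and 4 as deposited the mean was -0.085 ± 0.23 (SD, n = 3; limma adjusted p = 0.929).

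Nckx30C encodes a potassium-dependent exchanger that moves calcium out of cells against sodium, and was described from the Drosophila eye and brain. The ratios were 0.03, 0.22, 1.10 and 0.38 on replicates 1 to 4. All 4 lay above 0, the first barely, and the value on replicate 3 was the largest of the 8 genes on any array. The mean was 0.43 ± 0.47 (SD, n = 4), a 1.35-fold ratio, with an interval from 0.04 to 0.83, a limma adjusted p = 0.636 and rank 35 from the top of 748, against 695 in the other direction. Without replicate 3 the mean was 0.21. With replicates 3 and 4 as deposited the values were 0.03, 0.22, -1.10 and -0.38, giving -0.31 ± 0.59 (SD, n = 4; limma adjusted p = 0.699).

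CanB, the regulatory subunit of calcineurin that binds calcium, was the gene that ran the other way. Its ratios were -0.21, -0.30, -0.71 and -0.31, below 0 on all 4 arrays. With the arrays not centred it did not keep a single sign. Both spots of its probe were below 0 on every array, and they differed by at most 0.152. The mean was -0.38 ± 0.22 (SD, n = 4), a ratio of 0.767, with an interval from -0.71 to -0.05 and a limma adjusted p = 0.624; it ranked 19 from the bottom of 748 genes, and 573 in the other direction. Its arrays in the other direction fell on both sides of 0, with a mean of 0.13 ± 0.47 (SD, n = 4; limma adjusted p = 0.888).

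The sodium pump was represented by nrv3, a beta subunit of the sodium/potassium ATPase found mainly in the nervous system; the pump restores the sodium gradient on which exchangers such as Nckx30C draw. It was measured on replicates 2, 3 and 4 at -0.22, 0.37 and 0.28. Replicate 2 opposed the other two, and the mean was 0.14 ± 0.32 (SD, n = 3; limma adjusted p = 0.951), a 1.10-fold ratio; without replicate 2 the mean was 0.32. The other direction gave -0.22, -0.37 and -0.28, all below 0 and close together, with a mean of -0.29 ± 0.07 (SD, n = 3; limma adjusted p = 0.617). Over arrays stj was thus tight in the likely direction and nrv3 in the other. For each gene this turned on the sign of its only array that was not dye-swapped, replicate 1 for stj and replicate 2 for nrv3. How many of all genes were as tight was not counted.

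Ordered by mean in the likely direction, the genes ran AP-2sigma, Nckx30C, Amph, stj, alphaSnap, nrv3, CASK and CanB. Neighbours among the first 7 were at most 0.17 apart. That gap, between Nckx30C and Amph, is smaller than the SD of either over arrays. Differences between genes were not tested, so no order is claimed among the 8. CanB lay 0.51 below CASK. In the likely direction 2 of the 4 genes on all arrays had one sign on each of them, Nckx30C higher and CanB lower. Over the 748 genes on 4 arrays 14.2% had one sign. With the arrays not centred neither Nckx30C nor CanB kept a single sign. Of the 4 genes on 3 arrays AP-2sigma and stj were higher on each, against 21.7% with one sign among the 696 such genes. By the other reading 0 of the 4 genes on all arrays did, against 15.0%, and of those on 3 arrays alphaSnap and nrv3 were lower on each, against 32.5%. The count turned on replicate 1: without it 7 of the 8 had one sign, 6 higher and CanB lower, but so did 48.0% of all genes. Without replicate 2 it was 5 of the 8 against 25.8% of all genes, without replicate 3 it was 4 against 29.6%, and without replicate 4 it was 4 against 32.0%. Which array is missing also differed, with alphaSnap and stj lacking replicate 2, like 480 of the 696 genes on 3 arrays, AP-2sigma lacking replicate 4 and nrv3 replicate 1.

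Each probe was spotted in adjacent pairs, and over 32 pairs of these genes the spots differed by a median of 0.13, the same as over 5292 pairs of probes with a listed gene. The largest difference, 0.51, was that of AP-2sigma on replicate 1. The median SD over arrays was 0.31 for the 8 genes and 0.30 for all genes tested; for stj the SD of 0.05 was smaller than the median difference of 0.105 between its own spots. The part that follows the dye, which equals the mean in the other direction, was -0.31 for Nckx30C, -0.26 for CASK, -0.20 for Amph and 0.13 for CanB. None of these passed (limma with dye orientation as a second term, lowest adjusted p = 0.625).

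**Figure D2:**
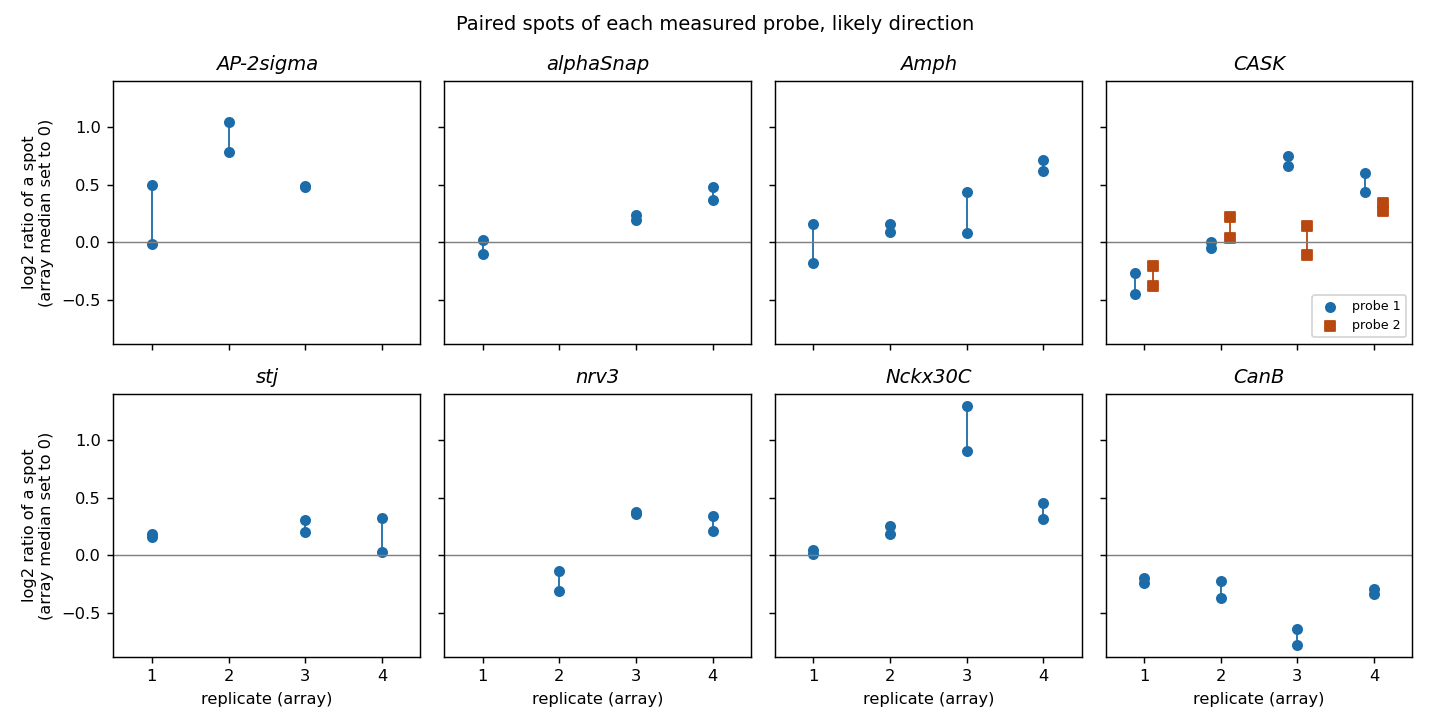
Log2 ratios of the individual spots (vertical axis, array median set to 0, likely direction) by replicate, 1 panel per gene; a line joins the paired spots of a probe, and the 2 measured probes of CASK are drawn apart. The paired spots of CanB stay below 0 on all 4 arrays, the CASK probes part on replicate 3, and the AP-2sigma spots part on replicate 1.

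On the scale as deposited, where array medians lay between -0.48 and -0.14, the reading mattered more. With the arrays not centred, the median over all genes was 0.05 in the likely direction and -0.31 in the other one. In the likely direction none of the 8 passed on that scale. In the other one 237 of 1444 genes passed, all lower (16.4%), and 4 of the 8 were among them: nrv3 at -0.69, Nckx30C at -0.64, CASK at -0.59 and Amph at -0.53 (limma adjusted p = 0.0240, 0.0185, 0.0241 and 0.0423 in that order). Relative to that median these 4 were at -0.37, -0.33, -0.28 and -0.22 in the same order, and none passed once the arrays were centred. This combination of settings was added after the data were seen.

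Related genes from lists of the same machinery held none that passed in either direction (limma). At an unadjusted p under 0.05 there were 0 in the likely direction, and 2, 1, 1 and 0 in the other one for vesicle cycle, scaffold, calcium and ion transport genes. The vesicle cycle list had 75 genes, 31 on the array and 8 measured on at least 3 arrays, with 0 passing and a median of -0.01, against -0.01 over all genes tested. At its top stood Syb, a synaptobrevin of the SNARE family, at 0.28 ± 0.56 (SD, n = 3), and unc-13, which primes vesicles for release, at 0.24 ± 0.30 (SD, n = 4). At its foot were Sec22, a SNARE of the secretory pathway, at -0.26 ± 0.61 and aux, the auxilin that helps strip clathrin coats, at -0.12 ± 0.10 (SD, n = 4 for each). These were in the other direction at -0.15, -0.25, -0.49 and -0.02 in the same order, and the list's median was -0.09. On replicates 1 to 4 unc-13 read 0.04, -0.07, 0.42 and 0.56, so its mean came from the dye-swapped arrays.

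Of 26 genes for synaptic scaffolds and adhesion 5 were tested and 0 passed, with a median of -0.16. The guanylate kinase scaffold gene vari, of the same protein family as CASK, was at -0.28 ± 0.36 (SD, n = 4), and the neuroligin genes Nlg1 and Nlg3, which encode postsynaptic adhesion proteins, were at -0.19 ± 0.34 (SD, n = 3) and -0.14 ± 0.29 (SD, n = 4). The synaptic matrix gene hig, at 0.21 ± 0.87 (SD, n = 3), read 1.20 on replicate 3 and below 0 on the other two. Read the other way vari, Nlg1, Nlg3 and hig were at 0.30, 0.32, 0.13 and -0.59, and the list's median was 0.145.

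Of 65 genes for calcium and Gq signalling 13 were tested, 0 passed, and 3 had a mean above 0, with a median of -0.09. No muscarinic receptor gene was among them. The exchanger gene zyd, of the same family as Nckx30C and known from glia, was at -0.01, 1.13 and -0.17 on replicates 1, 3 and 4, with a mean of 0.32 ± 0.71 (SD, n = 3). Like Nckx30C it was highest on replicate 3, but unlike it zyd lay below 0 on its other arrays. The calnexin gene Cnx99A, a chaperone of the endoplasmic reticulum that binds calcium, was at 0.09 ± 0.51 (SD, n = 4). The protein kinase C gene Pkc53E was at -0.25 ± 0.11 (SD, n = 4) and Nca, a neurocalcin, at -0.23 ± 0.29 (SD, n = 3). The other reading put zyd, Cnx99A, Pkc53E and Nca at -0.33, -0.31, -0.06 and 0.09, and the list's median at 0.03.

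Of 78 genes for ion channels, pumps and exchangers 8 were tested, 0 passed, and 1 had a mean above 0, with a median of -0.19. That gene was VhaAC45, an accessory subunit of the proton pump that acidifies vesicles, at 0.10 ± 0.12 (SD, n = 3). The potassium channel gene Sh, named for the leg shaking of its mutants, was at -0.12 ± 0.11 (SD, n = 4) and below 0 on all 4 arrays. The sodium/proton exchanger gene Nhe3 was at -0.22 ± 0.24 (SD, n = 4) and the proton pump gene Vha44 at -0.21 ± 0.32 (SD, n = 3). With the other reading VhaAC45, Nhe3, Vha44 and Sh were at -0.02, -0.06, 0.11 and 0.03, and the list's median was 0.07. The 8 chosen genes had a median of 0.20 in the likely direction and -0.22 in the other one. They are in none of these lists and were chosen with their values known, so the gap between these medians is no independent evidence. Close relatives of the 8, nrv1, nrv2, CanB2, stol and gammaSnap1, had no value on any array.

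**Figure D3:**
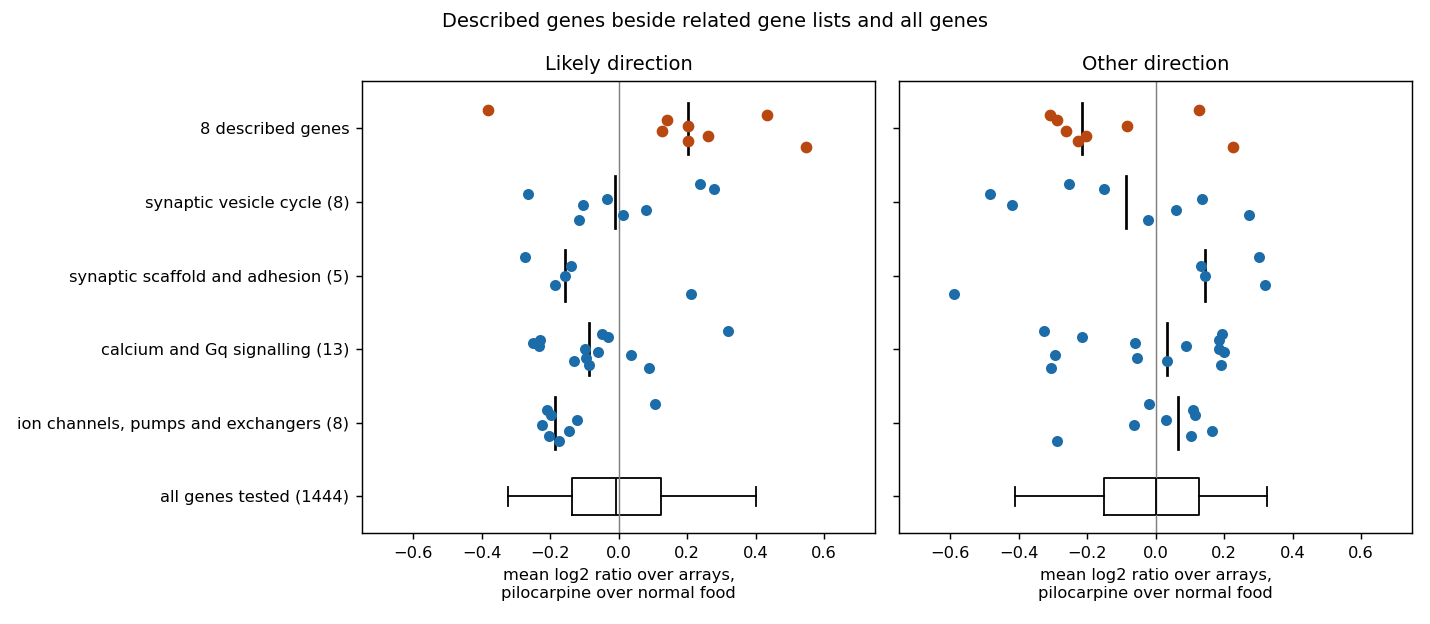
Mean log2 ratio of pilocarpine over normal food (horizontal axis) of the 8 genes, of the 4 related lists and of all 1444 genes tested, in the likely (left) and the other direction (right); points are genes, black lines medians, and the box shows quartiles with whiskers from percentile 5 to 95. The 8 genes have a median of 0.20 on the left and -0.22 on the right. That of the ion channel list is -0.19 on the left and 0.07 on the right. The 8 are in none of the lists and were chosen with their values known, so the gap between these medians is no independent evidence.

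The genes whose array pattern lay nearest to these were found by the root mean square difference of the ratios over 4 arrays, which does not change with the direction or with a single shift per array. Nearest to Amph was Sap47 at 0.07, nearest to CanB was CG13502 at 0.08, nearest to CASK was Rab2 at 0.10 and nearest to Nckx30C was CG12802 at 0.17. The median difference from the 747 other genes lay between 0.45 and 0.69. Between the members themselves, Amph and CASK were the closest pair at 0.21, and Nckx30C and CanB the farthest at 1.01. With so many genes on 4 arrays a near match is easily found, and it was not kept for most: 1 of the 4 nearest genes was the same from first spots alone and 0 from second spots alone.

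Markers of the tissues in a sieved head were measured only in part. None of the 10 neuron markers had a value, so the share of nervous tissue could not be followed. Of 17 photoreceptor markers 4 were tested and lay between -0.06 and 0.24, and of 11 glial markers 2 lay at 0.09 and -0.07. Of 10 haemocyte markers 1 lay at 0.13 and of 9 testis markers 1 lay at 0.52. None of all these passed. In the other direction the photoreceptor markers lay between -0.29 and 0.20. The glial markers then lay at 0.09 and -0.03, the haemocyte marker at -0.34 and the testis marker at 0.60. Of 20 muscle markers 7 were tested, 0 passed and 6 were below 0, with a median of -0.12. Among them Mlc1 was at -0.41 ± 0.07 (SD, n = 3). In the other direction both the muscle median and Mlc1 were at -0.09. Of 16 fat body markers 8 were tested, with a median of 0.14, or -0.27 in the other direction. Among them apolpp passed as higher (1.45 ± 0.67, SD, n = 4, limma adjusted p = 0.0274), at -0.24 in the other direction. By array the median of the fat body markers was -0.19, 0.75, 0.36 and 0.50 on replicates 1 to 4. Of the 7 chosen genes measured on replicate 1, 5 were lowest there, AP-2sigma, alphaSnap, Amph, CASK and Nckx30C. The share of all genes lowest on replicate 1 was not counted, so this cannot be read as particular to the chosen genes. With replicates 3 and 4 as deposited the marker medians were -0.19, 0.75, -0.36 and -0.50, and 0 of the 7 were lowest on replicate 1. The part of tissue makeup in these values was not tested.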

How the data were processed

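According to the submitters' design text, arrays were read on a GenePix scanner, quantified in GenePix Pro, normalized as ratios in Acuity and filtered on intensity, flags, uniformity and signal over background. The table the authors deposited holds log2 ratios between the dyes. Base 2 follows from the recurring top value of 16.61, the log2 of 100000, which acts as a ceiling. The 11 ceiling cells were dropped, adjacent paired spots were averaged, arrays were centred on the median over probes, replicates 3 and 4 were turned in sign and probes of a gene were averaged. Of 3236 probes with a value 1510 list 1 gene; names come from an old platform annotation, updated through gene IDs. The test was limma 3.58.1, run under R 4.3.3, of the 1444 genes with 3 or more arrays (eBayes with 9.27 prior degrees of freedom, two-sided, Benjamini-Hochberg over all of them, threshold 0.05); the fit was tested on simulated data. The authors' SAM was run as an alternative with an approximate form of its statistic. Named besides the 8 are, from each related list, the 2 highest and 2 lowest means, the nearest gene by pattern, close relatives and markers. The 8 genes and the lists were chosen with earlier results of these data known. The array pairs treated and untreated pools itself. Alternatives concerned direction, centring, filters, spots, probes, dye and single replicates.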

Additional observations from a re-analysis of the deposited data

Results flagged for a closer look

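The protein kinase C gene Pkc53E had one array apart from the others in the likely direction: replicate 3 was at -0.079, while replicates 1, 2 and 4 were at -0.31, -0.31 and -0.30. With replicates 3 and 4 as deposited the values were -0.31, -0.31, 0.079 and 0.30 and no array stood apart. It was the 1 of 18 genes tested in this way, those named here with a value on all 4 arrays, whose outermost array exceeded Dixon's limit, and in the other direction 0 did; chance alone marks about 1 in 20 groups. Of the 8 genes, only the 4 with a value on all 4 arrays were tested. Among these CanB came closest in the likely direction, with replicate 3 at -0.71, without exceeding the limit. In the other direction CASK came closest, with replicate 2 at 0.05, also without exceeding it.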

How the results depend on the processing

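In all 17 alternatives that kept the likely direction, none of the 8 genes passed and each kept the sign of its mean, on the 15 that tested it for a gene on 3 arrays. Leaving out each replicate in turn gave means from 0.36 to 0.70 for AP-2sigma, 0.09 to 0.32 for alphaSnap, 0.13 to 0.35 for Amph, 0.03 to 0.28 for CASK, 0.18 to 0.22 for stj, 0.03 to 0.32 for nrv3, 0.21 to 0.57 for Nckx30C and -0.44 to -0.27 for CanB; a gene needed 2 arrays in these fits. The same fits gave 0 to 18 genes passing in all, 4 to 7 of the 8 genes with one sign and 0 to 2 of the nearest genes kept.

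With replicates 3 and 4 as deposited alphaSnap was at -0.23, Amph at -0.20, CASK at -0.26, stj at -0.085, nrv3 at -0.29, Nckx30C at -0.31 and CanB at 0.13, with 0 genes passing and 2 of the 8 with one sign. There unc-13 was at -0.25, Syb at -0.15, vari at 0.30, Nlg1 at 0.32, Nlg3 at 0.13, hig at -0.59, Nca at 0.089, Cnx99A at -0.31, zyd at -0.33, Vha44 at 0.11, Sh at 0.029 and VhaAC45 at -0.021. With the arrays also not centred, a setting added after the data were seen, 237 of 1444 genes passed (16.4%). Among these were 4 of the 8 genes. Of the related lists, 3 of 8 vesicle cycle, 1 of 5 scaffold, 4 of 13 calcium and 0 of 8 ion transport genes passed. In that setting AP-2sigma was at -0.078, alphaSnap at -0.51, Amph at -0.53 and CASK at -0.59. The values of stj, nrv3, Nckx30C and CanB were -0.37, -0.69, -0.64 and -0.20 in that order.

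In the likely direction without centring 2 of the 8 had one sign, AP-2sigma and stj, and CanB and Nckx30C no longer did. Nlg1 was at 0.0042 and VhaAC45 at -0.0047. The dye term passed for 3 of the 4 genes on all arrays, against 0 with centring. The share of all genes for which it passed without centring was not counted. The count of 3 thus cannot be read as particular to the chosen genes. That term equals the mean in the other direction, whose median over all genes was -0.31 on the uncentred scale. Centring within blocks of consecutive spots gave 0 genes passing, 2 of the 8 with one sign, 0 of the 4 nearest genes kept and VhaAC45 at -0.071. Restricting to genes on all 4 arrays gave 1 gene passing and 2 with one sign, first spots 1 and second spots 0 genes passing, and 1 probe per gene 1 passing; first spots kept 1 and second spots 0 of the nearest genes. The dye covariate gave 19 genes passing, single probes 0, and the SAM statistic 0 genes, with 2 of the 4 genes it could use having one sign. With 1 probe per gene or single probes Cnx99A was at -0.053. Leaving out each replicate in turn, Nlg3 lay between -0.20 and 0.0032, hig between -0.28 and 0.54, Cnx99A between -0.12 and 0.30 and zyd between -0.090 and 0.56, each changing sign without replicate 3. The cause of these changes was not tested. The test was already a paired one, because each array sets its own treated pool against its own untreated pool. There is 1 group of arrays. Without intensities, signal over background could not be weighed.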
